A study of Mus musculus with 2 samples.

Results

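The genes described here are the cyclins, cyclin-dependent kinases (CDKs), Cdc genes, minichromosome maintenance (MCM) genes and E2F factors of the mouse, taken as every protein-coding RefSeq gene whose symbol is Ccn plus a letter with or without a number, or Cdk, Cdc, Mcm or E2f plus a number. The rule took 74 of 21887 protein-coding genes on chromosomes 1 to 19, X and Y. It used symbols only and no measured value. The names span several jobs, so the genes were sorted into 11 role classes, and a Cdc number alone says only that a yeast cell-division mutant gave the gene its name.

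The mark studied was H3K27ac, an acetylation of a histone tail, which lies at active promoters and enhancers. It was profiled by CUT&Tag, in which an antibody brings a transposase to marked chromatin and the cut fragments are sequenced. One library came from Tle4cKO mice (Tle4f/f Lyz2-Cre), in which Cre from the Lyz2 locus deletes the floxed Tle4 gene in myeloid cells, and the other from WT mice (Lyz2-Cre), which carry the same Cre. All mice were untreated C57BL/6 males of 11.1 weeks, and each library held Siglec-F(-)Ly6C(lo)CD64(+) colonic macrophages pooled from 4 mice. There is therefore 1 library per genotype, no replicate and no test between genotypes, and a histone mark does not check that Tle4 was deleted. In such a pool, fewer cells with a mark and less of the mark per cell cannot be told apart.

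Cyclins bind and switch on CDKs. Cyclins D, E, A and B act in turn with Cdk4 and Cdk6, then Cdk2, then Cdk1 to carry a cell through division, and the retinoblastoma proteins hold E2F factors in check until CDKs phosphorylate them. E2F then switches on genes of DNA replication, among them the MCM genes, whose products form the ring helicase that is loaded at origins and started with Cdc45. A second branch of the family serves transcription in every cell, dividing or not: Cdk7 with cyclin H, Cdk9 with cyclin T, Cdk12 and Cdk13 with cyclin K, and Cdk8 and Cdk19 with cyclin C act on RNA polymerase II or the Mediator complex.

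The deposited data are 1 list of peak summits per library, each a single position with the authors' score, read here from its values as a −log10 of a p- or q-value. The Tle4cKO list held 2350 summits with a median score of 4.05, and the WT list 10474 with a median of 4.47. Read depth is unknown, and scores grow with depth, so scores of the Tle4cKO and WT lists are not on a common scale. A score places a peak within its own list, and a pair of scores does not compare the amount of mark between genotypes. A missing summit means that no peak was called. Of 14 macrophage marker genes, 0 had a Tle4cKO and 4 a WT summit within 1 kb of a gene end, Fcgr1 (the CD64 gene of the sort) among them with a WT score of 5.49. Of 39 markers of epithelial, T, B and plasma, neutrophil, fibroblast and endothelial cells, 0 had a Tle4cKO and 3 a WT summit there. Among all protein-coding genes 6.19% had one in Tle4cKO and 22.6% in WT, so the macrophage counts are near the share of all genes and are no check of the cell type.

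In Tle4cKO macrophages, 5 of the 74 genes carried a called H3K27ac summit at an end, and in WT macrophages 30 did, from a list of summits that is itself much longer. With the WT list cut to its 2350 highest scores, the length of the Tle4cKO list, the WT count was 9 (12.2%, beside 7.51% of all genes). The Tle4cKO count, of genes with a summit at most 1 kb from an outer end, is 6.76% of the 74 (exact Clopper-Pearson 95% interval 2.23 to 15.1%), where 6.19% of all protein-coding genes had one. The WT count is 40.5% (29.3 to 52.6%), against 22.6% of all protein-coding genes. The Tle4cKO share is thus near that of all genes, while the WT share is above it. Intervals cover counting error only. The 5 genes called in Tle4cKO, namely Ccnt2, Cdc45, Cdc27, Cdc40 and E2f5, were all called in WT as well (5.60% of all genes were called in both libraries), and 25 genes were called in WT without Tle4cKO (17.0% of all genes). No gene was called in Tle4cKO without WT (0 of 74, interval 0 to 4.86%, beside 0.594% of all genes), and 44 were called in neither library (59.5%, beside 76.8% of all genes). Of the 30 WT genes, 16.7% (5.64 to 34.7%) were thus also called in Tle4cKO, a share whose interval includes the 24.7% found over all genes.

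Within the wider window of 10 kb around each gene, the shares in both libraries were above those of all genes. Tle4cKO summits were called in 15 of the 74 genes (20.3%, 11.8 to 31.2%), against 11.6% of all protein-coding genes, and WT summits in 48 (64.9%, 52.9 to 75.6%), against 39.2%. All 15 Tle4cKO genes were among the 48 WT genes (10.8% of all genes were called in both), 33 genes had a WT summit alone (28.4% of all genes), 0 had a Tle4cKO summit alone (0.832%), and 26 had none (35.1%, beside 60.0%). Of the WT genes 31.2% (18.7 to 46.3%) were called in Tle4cKO, against 27.6% over all genes, where the share at gene ends was below that of all genes; both intervals include the share of all genes. With the WT list cut to its 2350 highest scores, 15 of the 74 genes were called in WT (20.3%, beside 12.8% of all genes). The Tle4cKO count leans on neighbours: 6 of the 17 Tle4cKO summits lay outside the member and inside or at the end of another protein-coding gene. When each summit counted only for its nearest gene, 8 members were left in Tle4cKO (10.8%, beside 8.41% of all genes) and 41 in WT (55.4%, beside 29.7%). The members are also somewhat longer than all protein-coding genes, with a median length of 21.1 kb against 17.2 kb, and a longer gene offers a larger window. Median lengths with and without a WT summit within 10 kb were 24.2 and 17.7 kb in the members and 25.0 and 12.3 kb in all genes. Whether length bears on the members' shares was not tested.

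**Figure D1:**
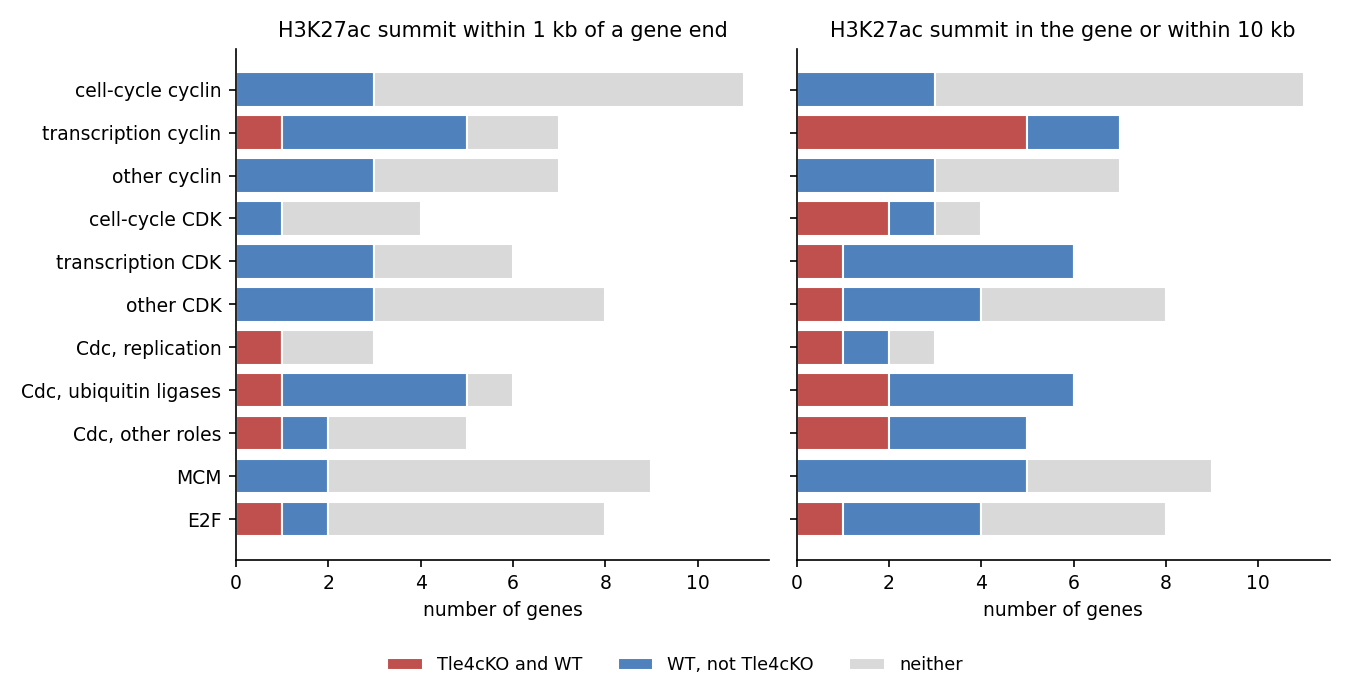
Number of genes in each role class (vertical axis) with an H3K27ac summit within 1 kb of a gene end (left) or in the gene or within 10 kb of it (right), split into genes called in Tle4cKO and WT, in WT without Tle4cKO, and in neither. No gene was called in Tle4cKO alone; within 10 kb, where 10.8% of all protein-coding genes were called in both libraries, 5 of 7 transcription cyclins were, and counts of 0 such as those of the cell-cycle cyclins and MCM genes are near that share in classes this small.

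Transcription may begin or finish at an outer gene end, so the summits were also placed against tabled RefSeq starts, which 61 of the 74 genes have. At these starts the genes marked in Tle4cKO were a little different. Ccnl1 and Ccnl2 begin inside their outer bounds, and E2f5 has no tabled start and could not be counted. A Tle4cKO summit lay within 1 kb of a start in 6 of 61 genes (9.84%, 3.70 to 20.2%, beside 6.92% of all genes with a tabled start), and a WT summit in 26 (42.6%, 30.0 to 55.9%, beside 25.0%). The 6 were Ccnt2, Ccnl1, Ccnl2, Cdc45, Cdc27 and Cdc40, and each also had a WT summit (both libraries, 6.36% of all such genes). The 6 Tle4cKO summits lay 164 to 513 bp from the start, 3 upstream and 3 downstream. The 29 WT summits within 1 kb lay at a median of 229 bp, with 14 upstream and 15 downstream. Both sets thus held summits on either side of the start.

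**Figure D2:**
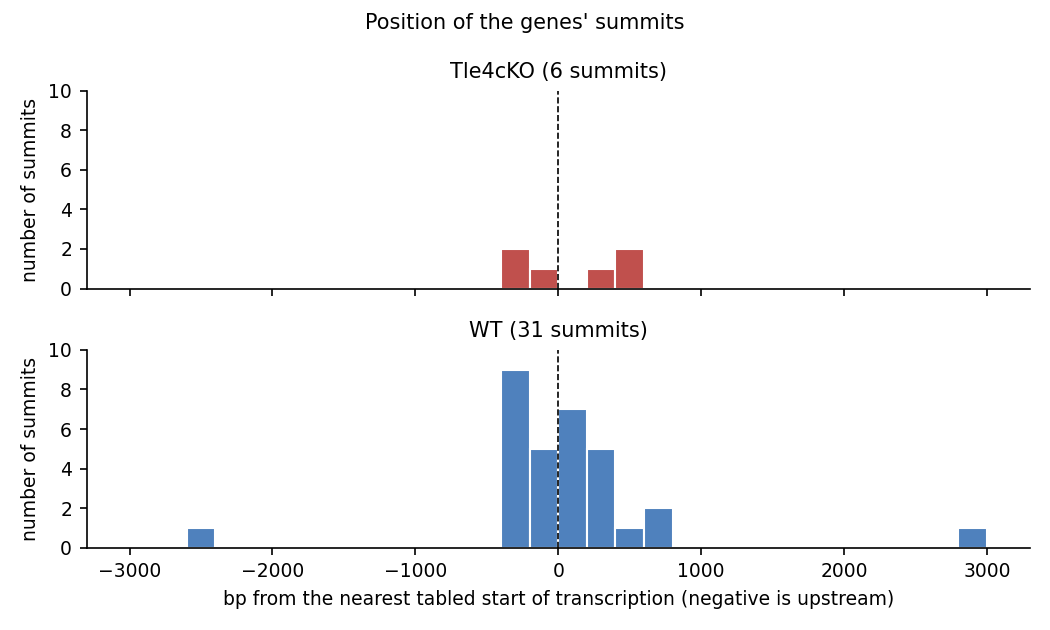
Number of summits of the genes with a tabled start (vertical axis) by distance in bp from the nearest start, in bins of 200 bp, upstream negative, for Tle4cKO (top) and WT (bottom); summits over 3000 bp away are not shown. In both libraries the summits gather on both sides of the start, with 6 in Tle4cKO and 29 in WT at most 1 kb away.

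Promoter sequence is shown for the 6 genes marked in both libraries and, to show the motifs, for 5 division genes chosen with their letters known: Cdk2 and Mcm7, marked at their starts in WT alone, and Cdc6, Mcm6 and Cdk1, with no summit at their starts in either. Each is the 250 bases before the start, 5′ to 3′ on the gene's strand, from RefSeq on GRCm38.p6. Capitals mark every match, on either strand, of 3 motifs: E2F (TTTCCCGC or TTTGGCGC, read as GCGGGAAA or GCGCCAAA on the other strand), CHR (TTTGAA, read as TTCAAA, the cell cycle genes homology region) and the CCAAT box (CCAAT, read as ATTGG). Different motifs overlap in none of these sequences.
Ccnt2 (chr1:127773914-127774163, plus strand): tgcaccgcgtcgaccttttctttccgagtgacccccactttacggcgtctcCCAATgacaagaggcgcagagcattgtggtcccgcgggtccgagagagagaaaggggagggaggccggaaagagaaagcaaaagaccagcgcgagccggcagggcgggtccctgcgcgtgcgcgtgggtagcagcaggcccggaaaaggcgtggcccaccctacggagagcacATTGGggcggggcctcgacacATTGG
Ccnl1 (chr3:65958250-65958499, minus strand): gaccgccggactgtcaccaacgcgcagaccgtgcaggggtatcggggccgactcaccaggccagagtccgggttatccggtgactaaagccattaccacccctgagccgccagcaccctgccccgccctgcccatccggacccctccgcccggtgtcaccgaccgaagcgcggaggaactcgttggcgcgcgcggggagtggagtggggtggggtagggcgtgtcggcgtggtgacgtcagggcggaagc
Ccnl2 (chr4:155812239-155812488, plus strand): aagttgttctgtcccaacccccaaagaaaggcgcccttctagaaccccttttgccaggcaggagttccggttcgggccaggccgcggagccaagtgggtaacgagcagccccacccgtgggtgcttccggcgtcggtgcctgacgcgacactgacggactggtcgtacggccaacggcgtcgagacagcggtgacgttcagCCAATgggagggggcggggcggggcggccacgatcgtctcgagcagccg
Cdc45 (chr16:18811973-18812222, minus strand): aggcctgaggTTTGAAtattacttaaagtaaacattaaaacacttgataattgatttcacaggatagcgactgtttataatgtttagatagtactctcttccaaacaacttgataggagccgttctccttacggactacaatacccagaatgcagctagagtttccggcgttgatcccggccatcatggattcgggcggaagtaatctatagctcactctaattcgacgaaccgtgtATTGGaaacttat
Cdc27 (chr11:104550621-104550870, minus strand): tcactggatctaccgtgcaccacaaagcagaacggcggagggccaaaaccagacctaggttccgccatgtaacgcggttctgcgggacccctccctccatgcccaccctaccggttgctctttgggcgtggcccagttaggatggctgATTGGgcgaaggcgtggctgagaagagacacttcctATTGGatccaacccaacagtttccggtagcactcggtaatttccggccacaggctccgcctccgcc
Cdc40 (chr10:40883144-40883393, minus strand): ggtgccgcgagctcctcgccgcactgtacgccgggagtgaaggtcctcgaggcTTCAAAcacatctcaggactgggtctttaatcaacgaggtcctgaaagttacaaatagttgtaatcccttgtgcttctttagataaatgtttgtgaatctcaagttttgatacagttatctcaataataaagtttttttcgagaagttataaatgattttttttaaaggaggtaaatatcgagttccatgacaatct
Cdk2 (chr10:128705052-128705301, minus strand): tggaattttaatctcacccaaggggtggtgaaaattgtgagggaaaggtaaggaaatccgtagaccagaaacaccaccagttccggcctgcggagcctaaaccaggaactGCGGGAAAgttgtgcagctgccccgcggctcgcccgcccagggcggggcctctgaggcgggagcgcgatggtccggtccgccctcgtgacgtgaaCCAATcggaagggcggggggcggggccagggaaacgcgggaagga
Mcm7 (chr5:138171884-138172133, minus strand): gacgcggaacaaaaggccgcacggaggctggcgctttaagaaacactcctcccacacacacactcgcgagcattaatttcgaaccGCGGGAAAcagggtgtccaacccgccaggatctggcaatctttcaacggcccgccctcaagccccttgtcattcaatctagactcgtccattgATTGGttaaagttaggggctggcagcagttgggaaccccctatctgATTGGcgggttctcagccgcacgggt
Cdc6 (chr11:98907901-98908150, plus strand): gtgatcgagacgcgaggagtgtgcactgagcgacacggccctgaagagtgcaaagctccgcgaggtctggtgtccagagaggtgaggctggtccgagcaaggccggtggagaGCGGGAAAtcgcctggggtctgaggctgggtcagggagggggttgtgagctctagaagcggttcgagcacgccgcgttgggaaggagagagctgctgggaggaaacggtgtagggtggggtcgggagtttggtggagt
Mcm6 (chr1:128359706-128359955, minus strand): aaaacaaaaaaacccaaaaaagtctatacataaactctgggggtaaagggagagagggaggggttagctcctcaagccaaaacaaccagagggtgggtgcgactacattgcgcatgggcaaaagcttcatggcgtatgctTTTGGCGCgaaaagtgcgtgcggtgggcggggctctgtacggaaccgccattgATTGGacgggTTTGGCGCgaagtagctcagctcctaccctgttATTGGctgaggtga
Cdk1 (chr10:69352913-69353162, minus strand): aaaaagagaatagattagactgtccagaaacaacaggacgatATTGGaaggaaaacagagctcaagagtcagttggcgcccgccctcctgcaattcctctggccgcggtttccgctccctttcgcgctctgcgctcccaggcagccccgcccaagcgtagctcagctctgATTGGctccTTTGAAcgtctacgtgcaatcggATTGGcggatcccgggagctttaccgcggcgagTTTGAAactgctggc
In these windows the E2F letters stand in Cdk2, Mcm7, Cdc6 and Mcm6. Since those genes were picked with that known and few windows hold the letters at all, their lack in the 6 genes marked in both libraries says nothing particular about the 6. Mcm6 holds 2 E2F matches, from −110 and from −47, and Cdk1 holds 2 CHR matches, from −71 and from −15, each counted back from the start. The Mcm7 window shown was picked for its E2F match. Another tabled start of Mcm7, also with a WT summit within 1 kb, has no E2F letters in its window.

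Over all 67 tabled windows of the 61 genes, the E2F letters took a larger share than among promoters at large. They occurred in 7 windows (10.4%), those of Cdc6, Cdk2, E2f3, E2f7, Mcm5, Mcm6 and Mcm7, against 1.67% of 21263 windows of all protein-coding genes. CHR letters occurred in 19.4% of the 67 windows and 14.5% of all, CCAAT in 52.2% of the 67 and 35.4% of all, and the GC box (GGGCGG, either strand) in 64.2% of the 67 and 42.6% of all. TATAAA, on either strand, occurred in 5.97% of the 67 and 11.6% of all. Among the 7 genes with E2F letters, Cdk2 and Mcm7 had a WT summit at that start and 0 had a Tle4cKO summit there. Of all genes with a tabled start, 25.0% had a WT and 6.92% a Tle4cKO summit at one, so both counts are near those shares. Of the windows of these genes, 2 of the 27 with a WT summit within 1 kb held E2F letters (7.41%), against 5 of the 40 with no summit (12.5%). Over all windows the order was the other way, with 3.10% of 5038 against 1.20% of 16111, and the genes' own counts are too small to read an order from. These are descriptions of letters in a short window, not of binding.

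The genes' promoters were also rich in CpG, the dinucleotide of CpG islands. The median ratio of observed to expected CpG was 0.868 in the 67 windows and 0.530 in all windows. Among windows with a ratio of at least 0.6, Tle4cKO summits lay within 1 kb in 10.7% (4.03 to 21.9%) of the genes' 56 windows and 11.3% of all 9509. In the same class, WT summits lay within 1 kb in 46.4% (33.0 to 60.3%) of the 56 and in 40.0% of the 9509. Below 0.6, Tle4cKO summits lay near 0 of the genes' 11 windows and 2.69% of all 11754, and WT summits near 1 of the 11 and 10.5% of the 11754. Among CpG-rich promoters the interval of the genes' share thus included the share of all windows, in Tle4cKO and in WT. The 40 windows of these genes with no summit still had a median CpG ratio of 0.824, where all windows with no summit had 0.395.

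**Figure D3:**
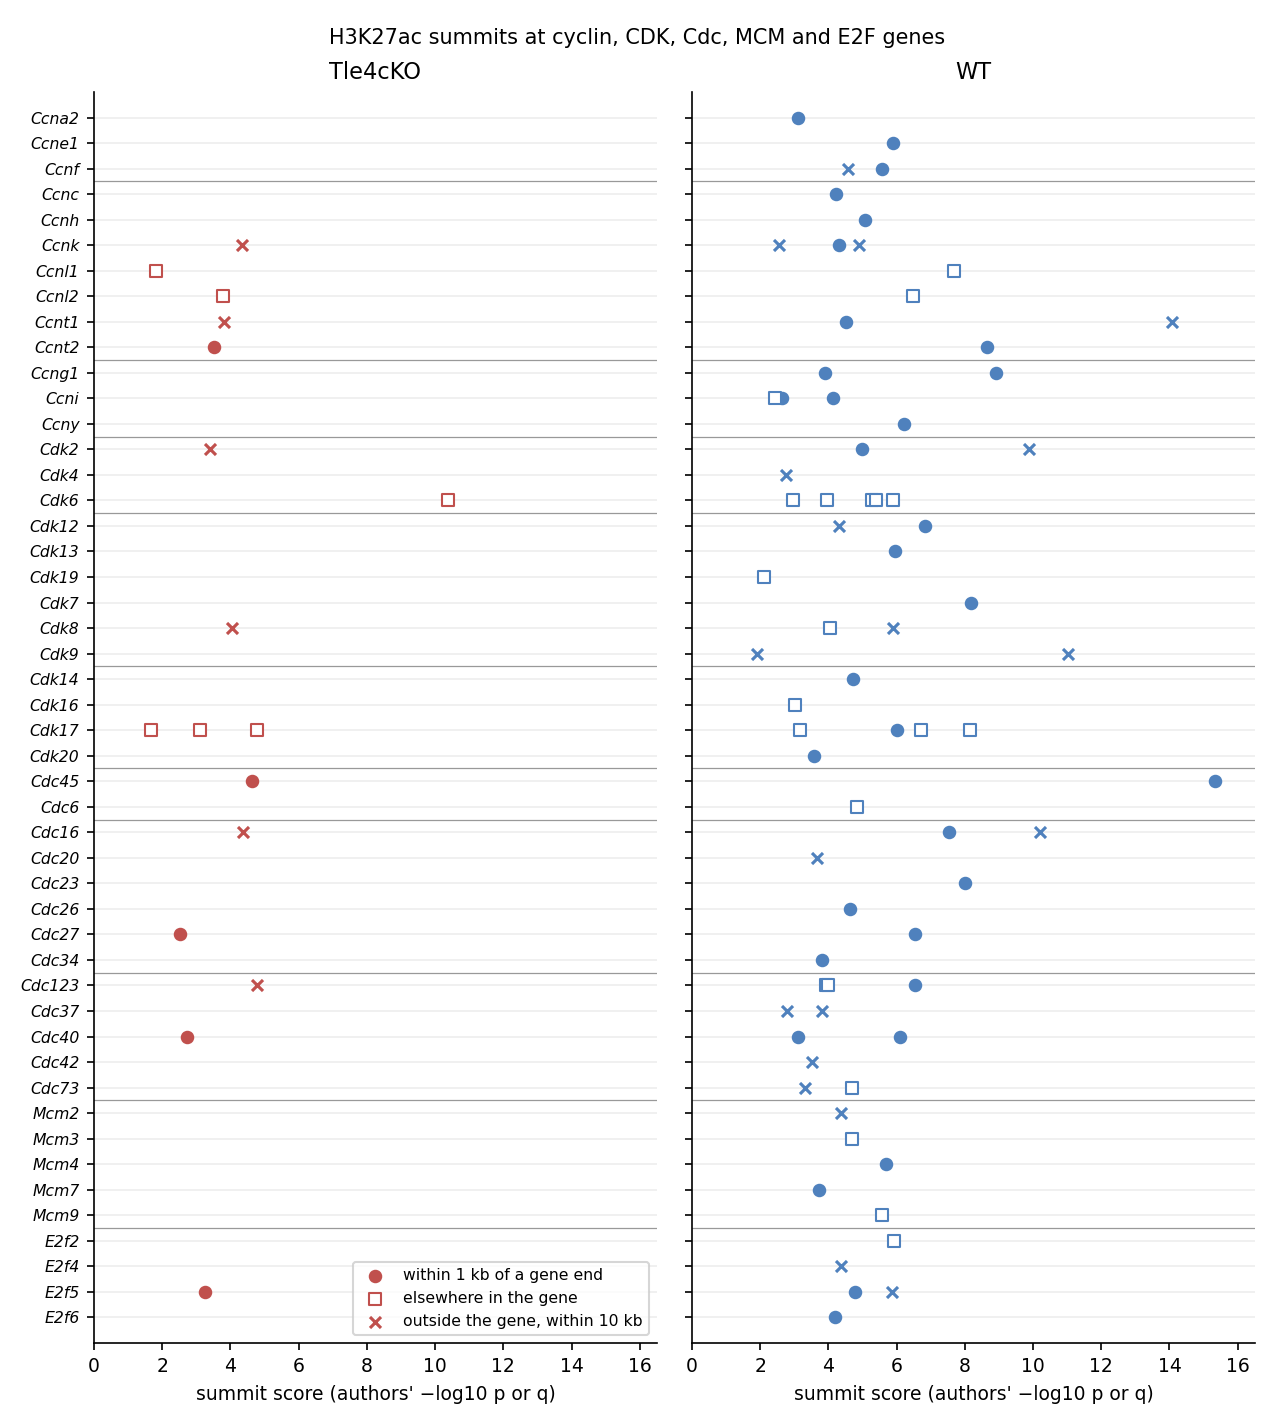
Score of every summit in or within 10 kb of a gene (horizontal axis, the authors' −log10 p or q) in Tle4cKO (left) and WT (right); filled circles lie within 1 kb of a gene end, open squares elsewhere in the gene, crosses outside it, and lines part the role classes. The 48 genes with a summit are shown; the Tle4cKO panel holds 17 summits at 15 genes and the WT panel 73 at 48, and scores are not on a common scale between panels.

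Of 11 cyclins of the division cycle, 0 had a Tle4cKO summit and 3 had a WT summit, within 10 kb as well as at gene ends. At gene ends these counts are near the shares of all genes (6.19% in Tle4cKO and 22.6% in WT); within 10 kb those shares were 11.6% in Tle4cKO and 39.2% in WT. Ccne1 (cyclin E1, the partner of Cdk2 at the entry to S phase; chromosome 7, 38097984 to 38107490, mm10) had a WT score of 5.89, 288 bp upstream of its start. Ccnf (cyclin F, the substrate receptor of a ubiquitin ligase) had 5.58 at its start and 4.59 at 5759 bp upstream, and no Tle4cKO summit. Ccna2 (cyclin A2) had a WT summit of 3.12 that lies within 1 kb of an end of Bbs7 as well. Neither library had a summit within 10 kb of Ccnd1, Ccnd2 or Ccnd3, the D cyclins that couple growth signals to Cdk4 and Cdk6, of Ccnb1 or Ccnb2, the mitotic B cyclins, or of Ccne2, Ccna1 and Ccnb3. Ccna1 and Ccnb3 are best known from germ cells.

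Of the 4 division kinases, Cdk2 and Cdk6 were called within 10 kb in Tle4cKO and Cdk2, Cdk4 and Cdk6 in WT. Among all genes, 11.6% were called within 10 kb in Tle4cKO and 39.2% in WT. Cdk1, the mitotic kinase, was called in neither library. Cdk2 had a Tle4cKO summit of 3.41 at 1800 bp outside the gene, where the ends of Rab5b and Pmel meet, and a WT summit of 9.87 at 22 bp from it. The WT summit at the end of Cdk2 itself scored 4.97 and had no Tle4cKO summit near. It also lies inside Pmel. Cdk4 had a single WT summit of 2.75, 8132 bp away at the end of Agap2. Cdk6 (chromosome 5, 3341004 to 3531008) had 1 Tle4cKO summit, at position 3480112 deep in the gene, with a score of 10.4 and rank 147 of 2350, within the top 6.26% of its list. It is the highest Tle4cKO score of all 74 genes. The WT summit 15 bp away scored 5.27 and ranked 3781 of 10474, within the top 36.1%. Another 4 places in Cdk6 were called in WT without Tle4cKO, with scores of 3.96, 5.90, 2.96 and 5.39. None of the Cdk6 summits lay at the tabled start: the nearest, in WT, was 11506 bp downstream.

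**Figure D4:**
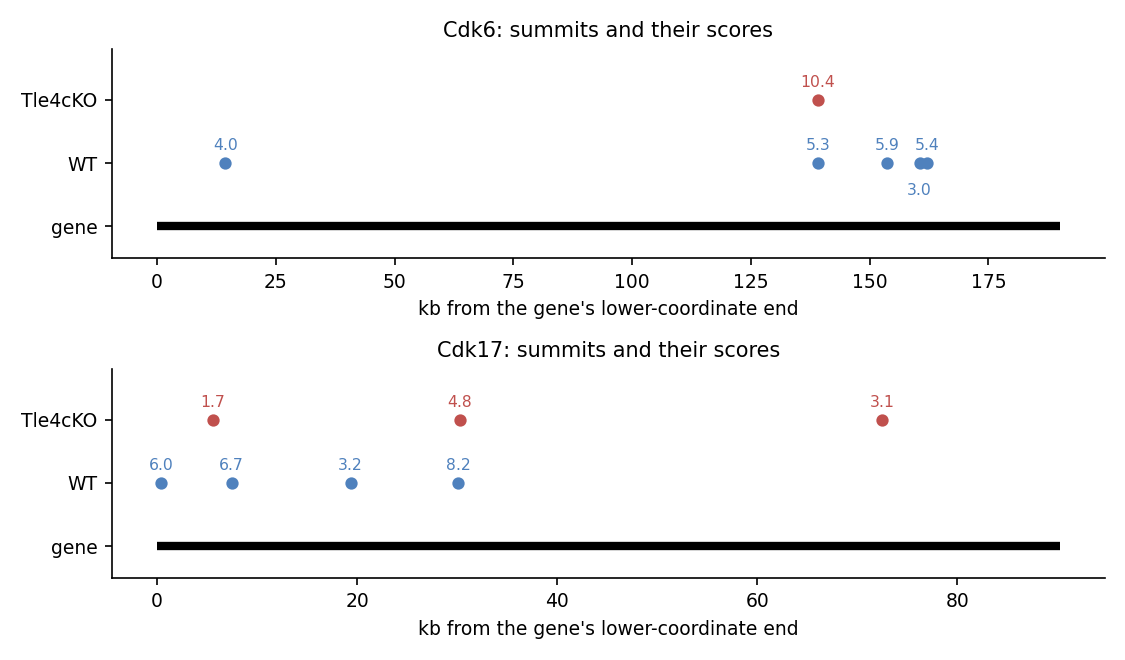
Summits of Tle4cKO (upper row) and WT (lower row) along Cdk6 and Cdk17, by distance in kb from the lower-coordinate end of the gene (black bar), with each summit's score from its own list. One Tle4cKO summit in each gene, scoring 10.4 in Cdk6 and 4.76 in Cdk17, lies within 500 bp of a WT summit.

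Of the 13 kinases and cyclins of transcription, 6 were called within 10 kb in Tle4cKO and 13 in WT, where 11.6% of all genes were called in Tle4cKO and 39.2% in WT. Of the 7 transcription cyclins, 5 had a Tle4cKO summit within 10 kb and 7 a WT summit; of the 6 transcription CDKs, 1 had a Tle4cKO and 6 a WT summit. Joined, 1 of 13 had a Tle4cKO and 8 of 13 a WT summit at a gene end (61.5%, 31.6 to 86.1%), against 0 of the 15 division cyclins and CDKs in Tle4cKO and 4 in WT (26.7%, 7.79 to 55.1%). Among all genes 6.19% had a Tle4cKO and 22.6% a WT summit at an end. The WT interval of the transcription genes lies above that WT share and that of the division genes includes it. The role classes were chosen with earlier results of these data known, so these intervals describe the classes and do not test them. Another class, the Cdc genes of ubiquitin ligases, had 5 of 6 genes called at an end in WT. The 2 classes' intervals overlap, and the difference between the classes was not tested. At tabled starts, 3 of 11 transcription genes were called in Tle4cKO and 9 in WT, against 0 of 11 division genes in Tle4cKO and 3 in WT, beside 6.92% in Tle4cKO and 25.0% in WT of all genes with a tabled start.

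Ccnt2 (cyclin T2, partner of Cdk9 in the factor that releases paused RNA polymerase II; chromosome 1, 127774164 to 127804837) had a Tle4cKO score of 3.50 at 513 bp downstream of its start and a WT score of 8.66 at 98 bp downstream, 415 bp apart. Ccnl1 (cyclin L1, a cyclin tied to splicing) had 1.80 in Tle4cKO at 313 bp upstream and 7.68 in WT at 193 bp upstream. Its Tle4cKO peak was among the weakest of that list, at rank 2329 of 2350. Ccnl2, its paralogue, had 3.78 in Tle4cKO and 6.48 in WT, 439 and 127 bp downstream. These 3 cyclins were called around their own starts in both libraries.

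The other transcription genes called in Tle4cKO were called at places that other genes share. At Ccnt1 (cyclin T1) the Tle4cKO summit of 3.81 and the WT summit of 14.1, 103 bp apart, lay at an end of Kansl2, and the WT summit of 4.51 at the start of Ccnt1 itself had no Tle4cKO partner. Ccnk (cyclin K) had a Tle4cKO summit of 4.34 and WT summits of 2.55 and 4.90 inside the neighbouring Setd3, and a WT summit of 4.30 at its own end, which Setd3 shares. Cdk8 had a Tle4cKO summit of 4.06 and a WT summit of 5.88, 3 bp apart, at an end of Rnf6, and a WT summit of 4.05 in its body. For these 3 genes the Tle4cKO summit cannot be assigned to the gene named.

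The remaining 7 transcription genes were called in WT with no Tle4cKO summit within 10 kb, 5 of them at a gene end. Cdk9 had the highest WT score among them, 11.0 at 2459 bp upstream of its start, and 1.92 further out. Cdk7, the kinase of the general factor TFIIH, had 8.17 at 168 bp downstream of its start. Its partner Ccnh had 5.08 at a gene end. Cdk12 and Cdk13, kinases of the polymerase tail, had 6.82 and 5.94 at 336 and 312 bp upstream of their starts. Ccnc, the cyclin of the Mediator kinase, had 4.21 at 9 bp from its start, and Cdk19 a summit of 2.12 in its body, at rank 10216 of 10474.

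Of the 15 other cyclins and CDKs, 0 were marked at an end in Tle4cKO and 6 in WT, where 6.19% of all genes were in Tle4cKO and 22.6% in WT, so the Tle4cKO count is near that share. Ccng1 (cyclin G1, a target of p53) led them with 8.92 and 3.91 on either side of its start. Ccny (cyclin Y, partner of Cdk14) had 6.21 and Cdk14 4.71, both at gene ends. Ccni had 4.12 and 2.65 near its start, at an end shared with 2010109A12Rik, and 2.43 in its body. Cdk20 had 3.57 at 17 bp from its start, and Cdk16 3.02 at 587 bp from a start inside its outer bounds. Cdk17 (chromosome 10, 93160876 to 93251094), of the same PCTAIRE subfamily as Cdk16, was the only gene of this group called in Tle4cKO. Its Tle4cKO summits scored 1.67, 4.76 and 3.11, all in the gene body, and its WT summits 6.02 at a gene end and 6.72, 3.17 and 8.16 in the body. That of 1.67 ranked 2344 of 2350 in the Tle4cKO list. The Tle4cKO summit of 4.76 and the WT summit of 8.16 lay 153 bp apart; the other Tle4cKO summits lay 1882 and 29296 bp from any WT summit. Neither library had a summit within 10 kb of Ccng2, Ccnj, Ccno, Ccnq, Cdk5, Cdk10, Cdk15 or Cdk18.

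Of the 11 MCM and replication Cdc genes with a tabled start, 1 was called there in Tle4cKO and 2 in WT, near the shares of all such genes (6.92% in Tle4cKO and 25.0% in WT). Cdc45, part of the active replicative helicase (chromosome 16, 18780447 to 18811972), had a summit at the same position, 18812270, in both libraries, with a score of 4.63 in Tle4cKO (rank 876) and 15.3 in WT (rank 166, the highest WT score of the 74 genes). That summit lies 298 bp upstream of its start and also within 1 kb of an end of Ufd1, so it may mark either. Of 9 MCM genes, 0 had a Tle4cKO summit within 10 kb (11.6% of all genes) and 5 had a WT summit (39.2% of all genes). Mcm4 (5.68, at an end shared with Prkdc) and Mcm7 (3.74, shared with Ap4m1) were called at gene ends. Mcm9 (5.56) and Mcm3 (4.70) were called in the gene body, and Mcm2 (4.37) 3657 bp upstream at an end of Tpra1. Mcm9 acts with Mcm8 in recombinational repair, while Mcm2 to Mcm7 form the helicase ring. Mcm5, Mcm6, Mcm8 and Mcm10 had no summit. Cdc6, the loader of the ring, had a WT summit of 4.84 in its body and none at its start, and Cdc7, the kinase that starts origins, had none.

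Subunits and partners of the ubiquitin ligases that drive the cycle were called at the ends of 1 of 6 genes in Tle4cKO and of 5 in WT, beside 6.19% of all genes in Tle4cKO and 22.6% in WT. Cdc27, a subunit of the anaphase-promoting complex (APC/C; chromosome 11, 104502524 to 104550620), was that gene, with 2.51 in Tle4cKO and 6.54 in WT at 36 bp from each other, 305 and 341 bp downstream of its start. Both summits also lie inside the overlapping gene Myl4, and the Tle4cKO peak was weak in its list, at rank 2068 of 2350. Cdc23 (8.02), Cdc16 (7.54) and Cdc26 (4.62, at an end shared with Prpf4), further APC/C subunits, were called at ends in WT alone. The Tle4cKO summit near Cdc16, with 4.37, lay at an end of Upf3a beside a WT summit of 10.2. Cdc34, the ubiquitin-conjugating enzyme of SCF ligases, had 3.81 in WT. Cdc20, the mitotic activator of the APC/C, had only a WT summit of 3.67, 4502 bp away inside Elovl1.

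Of the 5 Cdc genes with other jobs, 2 had a Tle4cKO summit within 10 kb (11.6% of all genes) and 5 a WT summit (39.2% of all genes). Cdc40, a splicing factor (chromosome 10, 40831621 to 40883143), had 2.74 in Tle4cKO and 6.09 in WT upstream of its start, 130 bp apart and at an end shared with Wasf1, and a second WT summit of 3.09. The Tle4cKO peak of Cdc40 ranked 1967 of 2350. Cdc123, an assembly factor of a translation initiation factor, had a Tle4cKO summit of 4.78 inside the neighbouring Nudt5, and, 6662 bp from it, a WT summit of 6.53 at 11 bp from its own start, which Nudt5 shares. Cdc73 of the Paf1 complex (4.70 and 3.30), the GTPase gene Cdc42 (3.53) and the Hsp90 cochaperone gene Cdc37 (3.82 and 2.77) had WT summits away from their ends. The Cdc37 summit of 3.82 lay at an end of Tyk2.

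Of the 8 E2F genes, 1 was marked at an end in Tle4cKO (E2f5) and 2 in WT (E2f5 and E2f6). Among all genes 6.19% were in Tle4cKO and 22.6% in WT, so these counts are near those shares. E2f5, a repressor that works with the retinoblastoma relatives (chromosome 3, 14578602 to 14606309), had 3.26 in Tle4cKO and 4.77 in WT at the same end, 353 bp apart, and a further WT summit of 5.87 at an end of Rbis. E2f6, a repressor that acts without retinoblastoma proteins, had 4.19 in WT at 241 bp downstream of its start. E2f2, an activator, had a WT summit of 5.91 in its body, and E2f4 one of 4.37 at 8225 bp, at the ends of other genes. E2f1, E2f3, E2f7 and E2f8 were called in neither library. Of the 8 genes, 1 was thus called within 10 kb in Tle4cKO and 4 in WT, counts near the shares of all genes (11.6% in Tle4cKO and 39.2% in WT).

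Counted summit by summit, the genes held 17 Tle4cKO and 73 WT summits within 10 kb. Among the 17, 14 lay within 500 bp of a WT summit (82.4%, 56.6 to 96.2%), against 79.7% of all Tle4cKO summits. Among the 73, 14 lay within 500 bp of a Tle4cKO summit (19.2%, 10.9 to 30.1%), against 18.0% of all WT summits. Both shares were near those of the whole lists. The partnered WT summits had a median score of 7.11 and the others 4.37, where all partnered WT summits had 6.55 and all others 4.21. Below a WT score of 4, 1 of 23 summits had a partner, and at 8 or above 6 of 10 did (60.0%, 26.2 to 87.8%), against 7.31% and 57.5% of all WT summits in those classes. Between them, 3 of 30 summits scoring 4 to 6 and 4 of 10 scoring 6 to 8 had one, beside 13.8% and 25.6%.

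**Figure D5:**
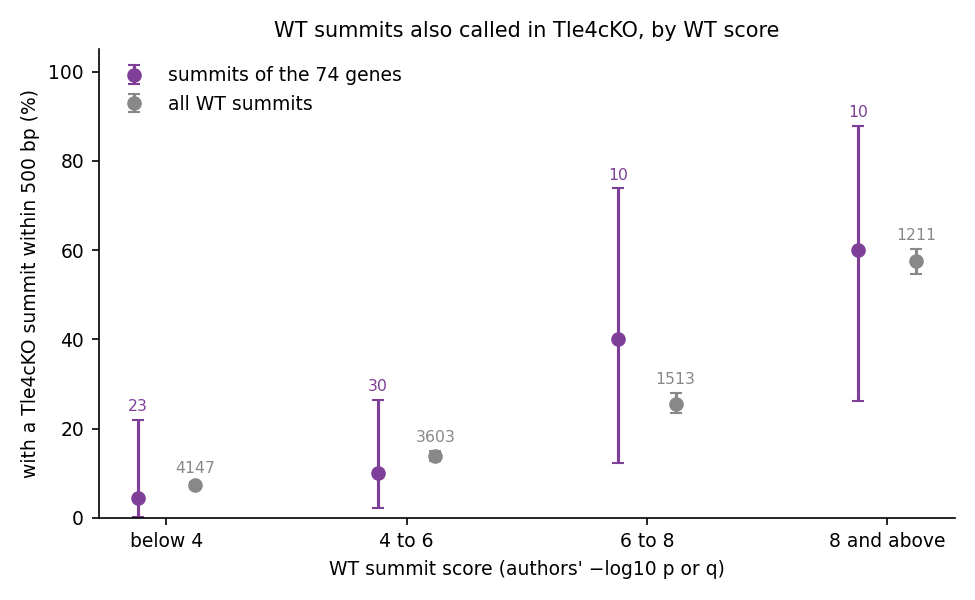
Share of WT summits with a Tle4cKO summit within 500 bp (vertical axis, %) by WT score class, for summits in or within 10 kb of the 74 genes and for all WT summits; points are shares, bars are exact 95% intervals, and the number over each bar counts its summits. The share grows with WT score in both sets, to 60.0% near the 74 genes and 57.5% of all at scores of 8 and above, and each interval of the 74 genes includes the share of all WT summits.

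Of the summits within 10 kb of these genes, most in each library lay in the genes or at their ends. These summits were chosen for lying in or near the genes, and the same shares were not computed for other genes. Of the 17 Tle4cKO summits, 29.4% (10.3 to 56.0%) lay within 1 kb of a gene end, 35.3% elsewhere in the gene and 35.3% outside; of the 73 WT summits, 45.2% (33.5 to 57.3%), 28.8% and 26.0% did, and the intervals at gene ends overlap. Among the 30 genes with a WT summit at an end, 9 (30.0%, 14.7 to 49.4%) had it within 1 kb of another gene's end too, beside 31.2% of all such genes. Just inside the window of 1 kb lay summits of E2f5 in Tle4cKO (539 bp, 3.26) and Ccny in WT (794 bp, 6.21). Just outside it lay those of Cdk2 in Tle4cKO (1800 bp, 3.41) and Cdk16 in WT (1096 bp, 3.02). For the window of 10 kb, Cdk8 (9556 bp, 4.06) lay just inside and Mcm7 (15140 bp, 4.56) just outside in Tle4cKO, and Ccnk (9969 bp, 4.90) and Cdc42 (10104 bp, 6.88) in WT.

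Genes that act on the same machinery under other names were counted in the same way, and each count reads against all protein-coding genes: 6.19% in Tle4cKO and 22.6% in WT at ends, 11.6% in Tle4cKO and 39.2% in WT within 10 kb. Whether the summits within 10 kb of these genes lie at or in other genes was not examined. Of 8 CDK inhibitor genes, 0 had a Tle4cKO and 1 a WT summit at an end, Cdkn2c (6.14 in WT); within 10 kb, 1 had a Tle4cKO and 2 a WT summit. They were Cdkn2c (4.75 in Tle4cKO and 13.9 in WT) and Cdkn1a (4.26 in WT). Of 12 genes of the retinoblastoma family, its DP partners and the MuvB complex, 0 were called at ends in Tle4cKO and 2 in WT; within 10 kb, 2 were called in Tle4cKO and 7 in WT. Rbl1 (6.56 in Tle4cKO and 5.86 in WT) and Rbl2 (3.41 in Tle4cKO and 5.16 in WT) were the 2, and Rb1 had a WT summit of 3.63. Of 20 genes of origin recognition and firing, 3 were called at ends in Tle4cKO and 10 in WT. Within 10 kb the counts were 3 in Tle4cKO and 14 in WT. The 3 Tle4cKO genes were called at ends in both: Orc6 (8.61 in Tle4cKO and 12.1 in WT), Rpa3 (4.32 in Tle4cKO and 7.82 in WT) and Orc2 (3.70 in Tle4cKO and 5.81 in WT). Of 28 genes of the APC/C and mitotic control, 2 were called at ends in Tle4cKO and 13 in WT, with Bub3 (4.51 in Tle4cKO and 6.20 in WT) and the kinase gene Wee1 (3.93 in Tle4cKO and 6.33 in WT) in both. Within 10 kb, 3 of the 28 were called in Tle4cKO and 19 in WT. Cdc25c was called there in both libraries but not at an end (8.77 in Tle4cKO and 16.9 in WT). Of 18 markers of dividing cells, 2 were called at ends in each library, Birc5 (4.32 in Tle4cKO and 5.49 in WT) and Hmgb2 (2.21 in Tle4cKO and 4.46 in WT), and within 10 kb 3 in Tle4cKO and 7 in WT. Mki67, the marker most used for dividing cells, had no Tle4cKO summit and a WT summit of 2.42 within 10 kb, not at its ends, and Top2a had none in either library.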

How the data were processed

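H3K27ac CUT&Tag summits of 1 Tle4cKO and 1 WT library were used as deposited. The submitters' processing notes name cutadapt 1.14, Bowtie2 2.2.5 and build mm10. In the sources used here, no peak caller, control library or depth was stated. The authors' deposited score was read as a −log10 of a p- or q-value, from the summit layout and a lowest score of 1.35; which kind it is was not stated. Chromosomes 1 to 19, X and Y were used, with positions counted from 1. Genes came from RefSeq on GRCm38.p6, the assembly behind mm10, and so did starts and promoter sequence (61 of 74 genes matched). A summit counted for a gene at most 1 kb from either outer end, or in the gene or at most 10 kb from it, and libraries were matched within 500 bp. Intervals are exact Clopper-Pearson (scipy 1.17.1, python 3.11.15). With 1 library per genotype no test was made. The rule for the 74 genes read symbols only and no measured value. That rule, the role classes, the lists and the motifs were chosen with earlier results of these data known. Values of their own went to every gene called in Tle4cKO, the 3 highest WT gene-end scores of each class, the best known genes, and up to 3 genes of each other list, those called in Tle4cKO first. Alternatives were other windows, starts only, score minimums, a WT list of the Tle4cKO length, other partner distances and nearest gene only. Steps were tested on simulated data.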

Additional observations from a re-analysis of the deposited data

How the results depend on the processing

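Of 49 alternative values of the 7 main results, 34 kept within 1.5 times the count or within the interval of the share. The count of genes with a Tle4cKO gene-end summit (5) was 3 with a window of 500 bp, 3 at a score of at least 3 and 0 at a score of at least 5. That of WT (30) was 17 at a score of at least 5 and 9 with the WT list cut to its 2350 highest scores, where 7.51% of all genes and 12.2% of the 74 were called. Within 10 kb, the Tle4cKO count (15) was 7 with summits inside the gene only, 1 at a score of at least 5 and 8 with the nearest gene only; the WT count (48) was 27 at a score of at least 5 and 15 with the cut list. The share of WT genes also called in Tle4cKO was, at a score of at least 5, 0.00% at gene ends (16.7% as reported) and 3.70% within 10 kb (31.2%), and 66.7% within 10 kb with the cut list. The share of WT summits with a partner (19.2%) was 3.12% at a score of at least 5 and 52.9% with the cut list. Values over all genes were computed only for the counts with the cut list and with the nearest gene, and for starts. All other shifts, among them those of the shares, cannot be read as particular to the 74 genes. Fewer summits entered each score minimum and the cut list. Each minimum was the same number in both lists, whose scores are not on a common scale. Other causes were not tested. No paired analysis was possible because each genotype has 1 library. Unknown depth limits every statement that a summit was not called.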
